A study of Mus musculus with 4 samples.

Results

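The 33 genes described here are the classical cadherins, the non-clustered protocadherins and the Celsr, Fat and Dachsous families, chosen by name from the 32285 genes listed in the files. They were followed in cells of the mouse cerebellum at E14.5 that were sorted for tdTomato (tdT). In the control, R26LSL-tdT/+ was switched on by Atoh1-Cre/+, so that cells of the Atoh1 lineage carry the fluorescent label. The En1/2 conditional knockout (CKO) had the same Atoh1-Cre/+ and R26LSL-tdT/+ alleles and was also En1lox/lox and En2lox/lox, which removes the transcription factors Engrailed 1 and 2 only where and after the Cre acts. There were 2 control and 2 CKO libraries, each from pooled animals, made with droplet-based 3′ single-cell RNA sequencing. Because embryos were pooled, a p-value below measures the spread between libraries.

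Cadherins are calcium-dependent adhesion proteins: cells that carry the same cadherin tend to adhere, and neighbouring neuron groups often carry different sets. Protocadherins bind more weakly and act mainly as recognition signals at growing axons and dendrites. The Celsr proteins steer planar polarity and axon tracts, and Fat and Dachsous are very large cadherins that can bind each other. In the embryonic cerebellum the Atoh1 lineage leaves the rhombic lip and forms both the excitatory neurons of the cerebellar nuclei and the granule cell precursors, which sort into separate places.

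A cell entered if it had 500 genes or more, 1000 or more unique molecular identifiers (UMIs, each counting 1 captured transcript end) and no more than 10% of UMIs from mitochondrial genes. This left 2911 and 3931 control cells and 2007 and 3697 CKO cells. Throughout, the order of 4 values is control replicate 1, control replicate 2, CKO replicate 1, CKO replicate 2. Cells with more Pax6 than Meis2 UMIs are called Pax6-high (1801, 961, 1208 and 2978 cells) and cells with more Meis2 than Pax6 UMIs are called Meis2-high (603, 2322, 573 and 372 cells). Pax6 marks granule cell precursors, and Meis2 marks nuclei neurons. Also followed were cells with an Olig2 UMI (112, 366, 138 and 143) and cells with a Tbr1 or Lmx1a UMI (144, 511, 264 and 148). These last sets overlap the others: of the Tbr1 or Lmx1a cells, 49, 306, 95 and 28 were Meis2-high, and of the Olig2 cells 29, 266, 65 and 25.

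Levels are CPM, the UMIs of a gene scaled to the total UMIs of that set of cells in a library, and 3′ counts are not divided by transcript length. Differences were tested on counts summed per library, with edgeR's quasi-likelihood test and Benjamini-Hochberg adjustment over all genes tested. A gene is called at an adjusted p below 0.05, and ± after a log2 difference is its standard error (SE). En2 fell below both controls in both CKO libraries (Meis2-high cells: 257, 188, 46.9 and 43.8 CPM). En1 did not separate the groups (562, 462, 347 and 743 CPM). Cells differed in depth, with a median of 2734, 2122, 5352 and 5544 UMIs per kept cell. In bulk sums such as these, fewer cells of a type and less RNA per cell cannot be told apart. The 6 granule lineage markers summed to 2851 to 3223 CPM in Pax6-high cells and 1101 to 1865 CPM in Meis2-high cells. The 6 nuclei neuron markers summed to 616 to 1119 CPM in the former and 2750 to 3471 CPM in the latter. Pax6 and Meis2 are in these lists, so part of both differences follows from how the sets were defined. Meis2 alone gave 38.2 to 191 CPM in Pax6-high and 1279 to 1861 CPM in Meis2-high cells. Pax6 alone gave 673 to 1115 CPM and 115.5 to 205.7 CPM. Neurod1, Lhx9, Lhx2 and Slc17a6 also differed without overlap, while the other markers of these lists, such as Meis1, overlapped. Over both sets, markers of GABAergic cells summed to 9.96 to 110 CPM, of ventricular zone and glia to 42.5 to 232 CPM, and of unipolar brush cells to 38.2 to 127 CPM. Those of the oligodendrocyte lineage reached 13.4 CPM, of endothelium 6.58 CPM and of meninges 2.31 CPM. Erythroid markers reached 2456 CPM and microglial markers 72.8 CPM, both in control replicate 2.

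Of the 33 genes, 20 reached a mean of 20 CPM in at least 1 of the 4 sets, and all 20 were called in at least 1 of the 9 comparisons made. Another 7 genes below that level were also called. In the comparison of Meis2-high with Pax6-high cells alone, 52.3% of all genes tested were called. The share of all genes called in at least 1 comparison was not counted. Cdh1, the epithelial E-cadherin, had no UMI in any kept cell, and the protocadherin Pcdh20 had at most 0.562 CPM in the Pax6-high or Meis2-high cells of a library, so neither was tested anywhere. The type II cadherins Cdh9, Cdh12, Cdh18 and Cdh22 were tested in 1 to 3 comparisons and called in none. The most abundant were Pcdh17, a protocadherin known for bundling axons that extend together, and Cdh2, or N-cadherin, the general adhesion cadherin of neural cells. Their highest mean over the 4 libraries of a set was 356 and 331 CPM. Celsr2 followed at 201 CPM, then Pcdh7 at 114 CPM and Pcdh15 at 104 CPM. Haemoglobin-rich cells, which should lack these genes, held 5 UMIs each of Pcdh17 and Cdh2 in 135072 UMIs, or 37.0 CPM each. Whether these came from free RNA or from doublets was not tested. Of all 33 genes such cells held 1 UMI in control replicate 1, 17 in control replicate 2 and 3 in CKO replicate 1. CKO replicate 2 had 0 such cells.

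Meis2-high and Pax6-high cells carried different sets of these genes. Of 27 tested, 26 were called, 17 higher and 9 lower in Meis2-high cells, where 52.3% of all 12380 genes tested were called (25.3% higher and 27.0% lower). The median log2 difference was 0.71 over the 27 genes and -0.01 over all genes. Cdh2 was the exception, at 327, 380, 251 and 367 CPM in Meis2-high and 261, 396, 228 and 318 CPM in Pax6-high cells. Its log2 difference was 0.09 ± 0.09, with an edgeR adjusted p of 0.43.

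**Figure D1:**
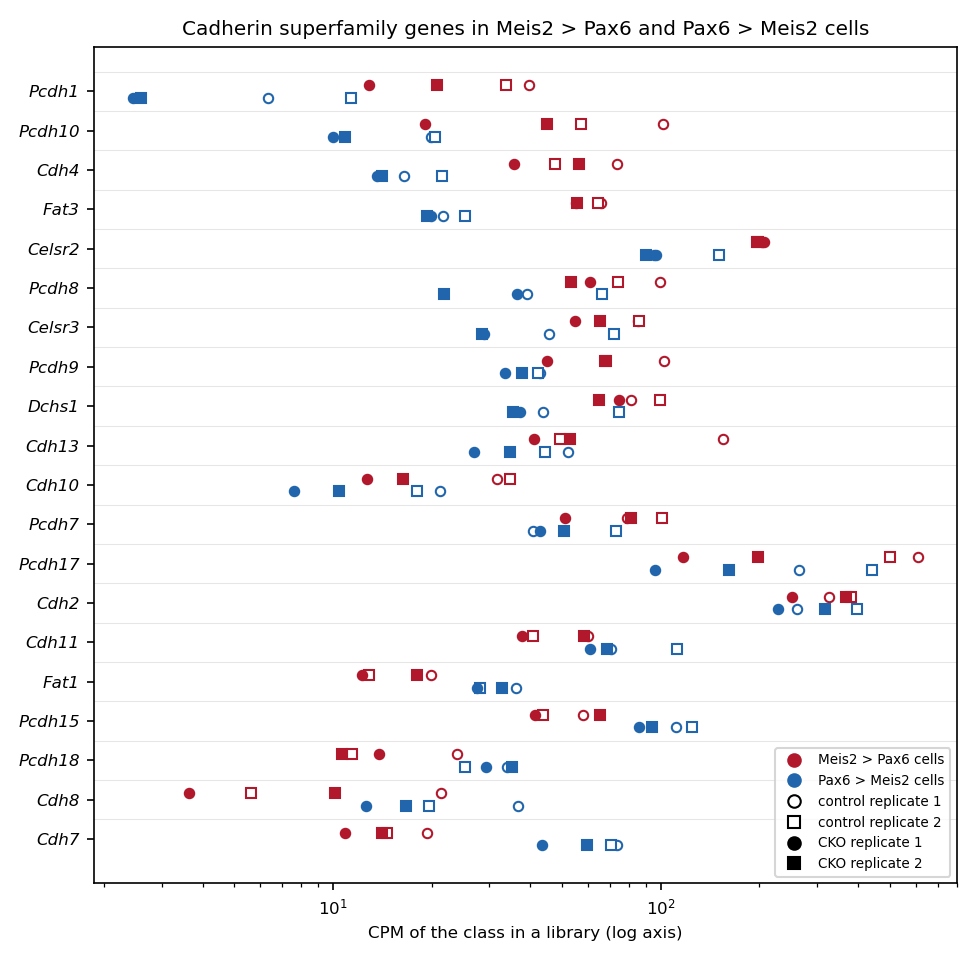
Level of the 20 genes with a mean of at least 20 CPM in a set, in Meis2-high (red, labelled Meis2 > Pax6) and Pax6-high (blue) cells, 1 point per library, on a log axis of CPM. Genes are ordered by the fitted difference: Pcdh1, at the top, was between 12.9 and 39.7 CPM in Meis2-high cells, and Cdh7, at the bottom, between 43.3 and 73.7 CPM in Pax6-high cells.

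Among classical cadherins, Cdh4 and Cdh6 were on the Meis2-high side. Cdh4, or R-cadherin, a close relative of N-cadherin, was at 73.3, 47.7, 35.5 and 56.2 CPM there and at 16.4, 21.5, 13.7 and 14.1 CPM in Pax6-high cells. All 4 Meis2-high values lay above all Pax6-high values, a 3.08-fold difference (log2 1.62 ± 0.15, edgeR adjusted p = 2.1e-06). Cdh6, a type II cadherin, was lower in level (22.9, 12.2, 11.1 and 16.9 CPM against 5.14, 3.78, 3.26 and 2.97 CPM), with a log2 difference of 1.98 ± 0.20 (edgeR adjusted p = 5.3e-06). The type II cadherin Cdh10 was at 31.5, 34.6, 12.7 and 16.3 CPM in Meis2-high and 21.2, 17.98, 7.62 and 10.4 CPM in Pax6-high cells. It was higher in Meis2-high cells within each library, although the values of the 2 sets overlapped (log2 0.66 ± 0.14, edgeR adjusted p = 0.0014). Cdh13, or T-cadherin, which is held at the membrane by a lipid anchor and has no cytoplasmic tail, was also higher (155, 49.3, 41.0 and 52.8 CPM against 52.3, 44.5, 27.0 and 34.6 CPM). Control replicate 1 stood far above the other libraries in this gene.

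Other type II cadherins lay on the Pax6-high side. Cdh7 was at 73.7, 70.6, 43.3 and 59.5 CPM in Pax6-high cells and 19.3, 14.6, 10.9 and 14.1 CPM in Meis2-high cells. The sets did not overlap, and the level was 4.41-fold lower in Meis2-high cells (log2 -2.14 ± 0.11, edgeR adjusted p = 5.6e-08). Cdh8 was at 36.7, 19.6, 12.6 and 16.7 CPM against 21.4, 5.63, 3.62 and 10.1 CPM (log2 -1.31 ± 0.20), lower in Meis2-high cells within every library. Cdh11, a cadherin shared with mesenchyme, was at 70.2, 112, 60.8 and 68.5 CPM against 60.0, 40.9, 37.8 and 58.4 CPM (log2 -0.74 ± 0.15). Cdh20 was rarer, at 9.34 to 11.4 CPM against 4.07 to 6.74 CPM (log2 -0.95 ± 0.21).

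Most protocadherins were higher in Meis2-high cells. Pcdh1 was at 39.7, 33.8, 12.9 and 20.8 CPM there and at 6.34, 11.4, 2.46 and 2.60 CPM in Pax6-high cells. It had the largest difference of the 27 genes, 5.04-fold (log2 2.33 ± 0.20, edgeR adjusted p = 1.8e-06). Pcdh10, which links to the actin-regulating WAVE complex in growing axons, was at 101, 56.9, 19.0 and 45.0 CPM against 19.9, 20.5, 10.0 and 10.8 CPM (log2 1.68 ± 0.18). Pcdh11x (log2 1.45 ± 0.25) and Pcdh19, a partner of N-cadherin (log2 1.10 ± 0.18), were called at lower levels. Pcdh8, which can draw N-cadherin in from the surface of neurons, was at 99.2, 74.1, 60.7 and 53.4 CPM against 39.1, 66.2, 36.3 and 21.8 CPM (log2 0.80 ± 0.15). Pcdh17 was higher by only 0.43 ± 0.14 on the log2 scale (edgeR adjusted p = 0.021). Without control replicate 1 that value was 0.20, with an edgeR adjusted p of 0.099.

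Pcdh9 was at 102, 68.0, 44.8 and 67.4 CPM in Meis2-high and 42.9, 42.3, 33.4 and 37.7 CPM in Pax6-high cells (log2 0.74 ± 0.12). Pcdh7 was at 78.8, 101, 51.2 and 80.9 CPM against 40.7, 73.2, 42.7 and 50.6 CPM (log2 0.51 ± 0.10). Both were higher within each library. Deeper cells of low mitochondrial content (4000 UMIs or more, 5% or less mitochondrial) gave other values for both and for Cdh10: log2 -0.30 for Pcdh9, -0.04 for Pcdh7 and -0.44 for Cdh10, none of them called. In such cells 20 of 26 genes were called, where 40.8% of all genes were. Pcdh15 and Pcdh18 went the opposite way. Pcdh15, best known as a tip-link protein of inner ear hair cells, was at 111, 125, 85.8 and 94.0 CPM in Pax6-high and 58.0, 43.9, 41.2 and 65.2 CPM in Meis2-high cells, with no overlap (log2 -1.09 ± 0.12). Pcdh18 was at 33.8, 25.2, 29.3 and 35.0 CPM against 23.9, 11.4, 13.8 and 10.7 CPM, again with no overlap (log2 -1.12 ± 0.16).

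The Celsr and Fat families were split between the sets. Celsr2 was at 204, 198, 207 and 196 CPM in Meis2-high cells and at 95.1, 150, 96.7 and 90.3 CPM in Pax6-high cells (log2 0.86 ± 0.11). Celsr3, needed for several long axon tracts, was at 85.5, 85.5, 54.8 and 65.2 CPM against 45.7, 71.9, 28.8 and 28.4 CPM (log2 0.74 ± 0.12). Celsr1, which acts in dividing epithelia, was lower in Meis2-high cells (10.2, 4.96, 3.62 and 8.99 CPM against 10.9, 12.9, 11.7 and 13.2 CPM, log2 -1.03 ± 0.24).

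Fat3, a regulator of neurite shape, was at 65.6, 64.4, 55.2 and 55.6 CPM in Meis2-high and 21.7, 25.2, 19.9 and 19.3 CPM in Pax6-high cells, 2.68-fold higher with no overlap (edgeR adjusted p = 2.0e-07). Fat1, a giant cadherin of dividing cells, was the reverse, at 36.1, 28.1, 27.5 and 32.8 CPM in Pax6-high and 19.8, 12.9, 12.2 and 17.98 CPM in Meis2-high cells (log2 -1.08 ± 0.12). Fat2, which is typical of granule cells and their parallel fibres, had a log2 difference of -1.75 ± 0.22. Dchs1 and Fat4, which form a ligand and receptor pair, were both higher in Meis2-high cells. Dchs1 was at 80.9, 99.3, 74.7 and 64.6 CPM against 43.7, 74.4, 37.3 and 35.3 CPM (log2 0.73 ± 0.10), and Fat4 at 12.7 to 29.0 CPM against 6.02 to 16.1 CPM (log2 0.80 ± 0.15). After thinning each cell to 2000 UMIs, 23 of 25 tested genes were called, where 36.1% of all genes were.

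Within the Pax6-high cells, early and later granule lineage cells were set apart by the bHLH factors Atoh1, which marks dividing precursors, and Neurod1, which marks cells leaving the cycle. Cells with an Atoh1 but no Neurod1 UMI numbered 201, 80, 182 and 438, and those with Neurod1 but no Atoh1 numbered 719, 423, 310 and 786. Of 24 genes tested, 20 were called, 15 higher and 5 lower in Neurod1 cells, where 49.7% of all 11030 genes tested were (24.8% higher and 24.9% lower). Fat2 had the largest rise, from 2.91, 5.53, 3.43 and 2.53 CPM in Atoh1 cells to 63.4, 41.9, 18.9 and 34.9 CPM in Neurod1 cells. That is 11.7-fold (log2 3.55 ± 0.23, edgeR adjusted p = 1.1e-13), and no Neurod1 value was as low as any Atoh1 value.

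Cdh13 rose from 16.7, 30.4, 9.002 and 11.5 CPM to 82.6, 48.5, 54.7 and 62.4 CPM (log2 2.30 ± 0.16). Cdh11 rose from 34.2, 47.0, 38.2 and 40.9 CPM to 113, 143, 97.3 and 103 CPM (log2 1.45 ± 0.10). Pcdh17 rose from 153, 199, 67.3 and 123 CPM to 417, 515, 161 and 230 CPM (log2 1.20 ± 0.09, edgeR adjusted p = 1.9e-12). For Cdh13 and Cdh11 the stages did not overlap, while the Pcdh17 value of Neurod1 cells in CKO replicate 1 lay below the Atoh1 value of control replicate 2. Fat4 rose by 2.01 ± 0.30 on the log2 scale, Pcdh10 by 1.35 ± 0.24, Pcdh8 by 1.12 ± 0.13, Cdh8 by 1.05 ± 0.19 and Celsr3 by 1.00 ± 0.13. Smaller rises were called for Dchs1, Pcdh15, Celsr2, Cdh7, Pcdh7 and Cdh2, between 0.25 and 0.69. In control replicate 2 Cdh7 was not higher, at 74.65 CPM in Atoh1 and 73.77 CPM in Neurod1 cells.

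The 5 genes that were lower in Neurod1 cells were Cdh20, Pcdh9, Pcdh18, Fat3 and Fat1. Cdh20 was at 30.5, 11.1, 21 and 25.7 CPM in Atoh1 and 4.92, 5.98, 2.06 and 4.58 CPM in Neurod1 cells, 5.76-fold lower (log2 -2.53 ± 0.24, edgeR adjusted p = 2.2e-10). Pcdh9 was at 64.7, 74.7, 63.9 and 68.0 CPM against 35.6, 25.3, 16.2 and 20.2 CPM (log2 -1.53 ± 0.14). Neither gene had overlapping values. Pcdh18 (log2 -0.97 ± 0.15), Fat3 (log2 -0.93 ± 0.17) and Fat1 (log2 -0.78 ± 0.13) were lower in every library. Atoh1 cells were deeper than Neurod1 cells, with medians of 4264, 3131, 13422 and 10427 UMIs against 2948, 2651, 5232 and 6295. At 2000 UMIs per cell 11 of 15 tested genes were called, where 24.7% of all genes were, among them Fat2, Cdh13, Cdh11, Pcdh17 and Pcdh9. Cdh20, Fat3, Fat4, Pcdh10, Cdh8, Celsr2, Cdh7, Pcdh7 and Cdh2 were not called at that depth, some of them for lack of a test. Celsr2, Pcdh7 and Cdh2 also lost the call in deep cells of low mitochondrial content.

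**Figure D2:**
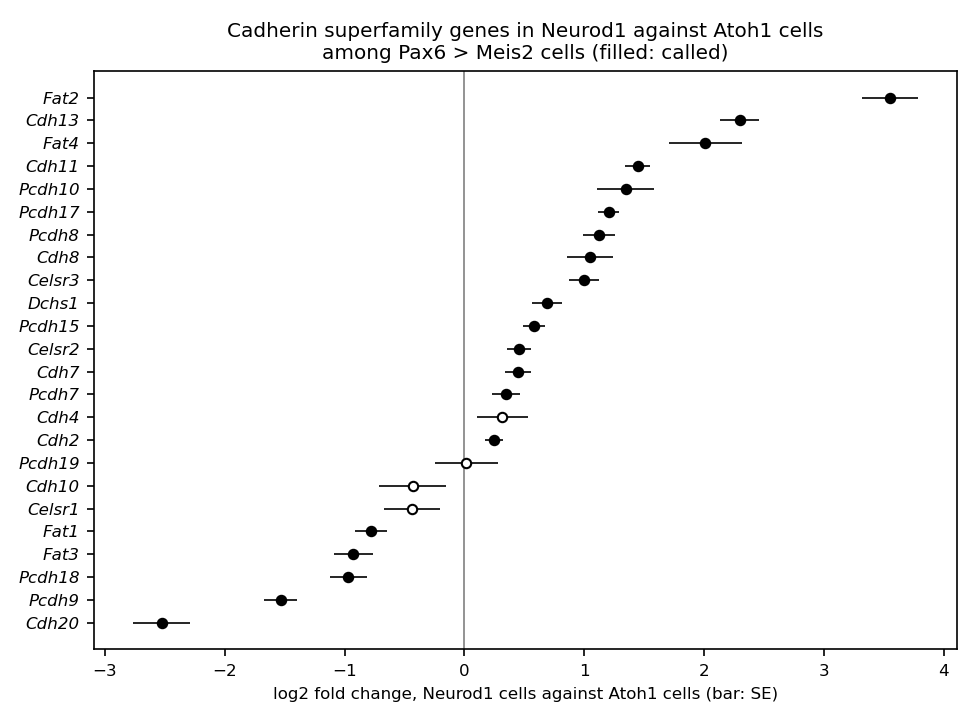
Fitted log2 difference with its SE between Neurod1 and Atoh1 cells among Pax6-high cells, for the 24 genes tested (filled points: called). Fat2 lies furthest right at 3.55 and Cdh20 furthest left at -2.53.

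Cells with a Tbr1 or Lmx1a UMI were compared with the other Meis2-high cells. Tbr1 marks medial nuclei neurons and Lmx1a marks cells of the rhombic lip and unipolar brush cells. Of 27 genes tested, 18 were called, 7 higher and 11 lower, where 17.6% of all 10528 genes were (9.73% higher and 7.86% lower). Much of this set was Pax6-high (74, 116, 145 and 109 cells). With only its Meis2-high members 5 of 24 genes were called, where 2.80% of all 9905 genes were. Pcdh7 and Pcdh9 were higher in both versions.

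Pcdh7 in Tbr1 or Lmx1a cells that were also Meis2-high was at 241, 186, 86.7 and 313 CPM. In Meis2-high cells without these markers it was at 61.4, 85.3, 42.2 and 63.4 CPM. The log2 difference was 1.43 (edgeR adjusted p = 3.7e-07), and each marked value lay above all unmarked ones. Pcdh9 was at 324, 141, 65.3 and 185 CPM against 78.3, 54.9, 39.7 and 58.6 CPM (log2 1.41, edgeR adjusted p = 5.9e-07). Its marked level was higher within each library, and CKO replicate 1 overlapped the unmarked cells. These values rest on 39 to 171 Pcdh7 and 23 to 130 Pcdh9 UMIs per library.

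Cdh4, Cdh13 and Fat3 were called lower in the marked Meis2-high cells. Cdh4 was at 41.9, 27.1, 15.8 and 8.03 CPM against 76.6, 51.4, 40.5 and 59.8 CPM (log2 -1.13, edgeR adjusted p = 0.0015). Cdh13 (log2 -0.90) and Fat3 (log2 -0.73) were called as well, at adjusted p of 0.027 and 0.026 by edgeR, although Cdh13 was not lower in CKO replicate 1 (41.6 against 40.8 CPM). In CKO replicate 2 the marked cells held 1 UMI each of Cdh4 and Cdh13. The whole set also had higher Cdh7 (log2 1.46 ± 0.20), Fat2 (log2 1.49 ± 0.27), Fat1 (log2 0.89 ± 0.22), Cdh11 (log2 0.82 ± 0.15) and Pcdh15 (log2 0.57 ± 0.13). Its Pcdh1, Cdh6, Pcdh19, Pcdh10, Cdh10, Celsr2, Pcdh8 and Celsr3 were lower, with log2 differences from -1.45 to -0.53. None of these further genes was called with Meis2-high cells alone. Leaving out CKO replicate 1 left 11 calls for the whole set, against 7.30% of all genes.

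Olig2 cells were compared in the same way. Olig2, a bHLH factor, is known in oligodendrocyte precursors and in some neuronal progenitors. Against other Meis2-high cells 14 of 27 genes were called, 3 higher (Cdh7, Pcdh15 and Fat1) and 11 lower, where 21.6% of all 10905 genes were (11.7% higher and 9.83% lower). With only the Olig2 cells that were Meis2-high 0 of 22 genes were called, where 1.05% of all 9576 genes were. The whole set held 66, 42, 62 and 111 Pax6-high cells. The lower genes included Cdh4 (19.3, 27.7, 21.1 and 27.2 CPM against 76.4, 51.5, 36.5 and 57.9 CPM, log2 -1.07 ± 0.19) and Cdh13 (57.8, 21.2, 28.2 and 28.1 CPM against 162, 53.0, 42.8 and 52.4 CPM, log2 -0.99 ± 0.17). Without control replicate 1 only Cdh4 and Pcdh7 were called, where 2.53% of all genes were. Without CKO replicate 1 there were 6 calls, against 8.13%, and without CKO replicate 2 there were 9, against 7.73%. Erythroid markers summed to 9243 CPM in the Olig2 cells of control replicate 2, and their part in the result was not tested.

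The upstream sequences of 4 genes are shown because these genes had contrasting patterns: Cdh20 was high in Atoh1 cells, Pcdh15 in Pax6-high cells, Celsr2 in Meis2-high cells, and Pcdh17 was called between CKO and control. Each is the 250 bases before a RefSeq transcription start (GRCm38.p6, the build named mm10 in the submitters' processing notes), read 5′ to 3′ on the strand of the gene, and overlaps no annotated exon of GENCODE M21. They are Cdh20 at chr1:104768270-104768519 (+), Pcdh15 at chr10:73821617-73821866 (+), inside the longer gene that GENCODE annotates, Celsr2 at chr3:108415580-108415829 (-) and Pcdh17 at chr14:84443313-84443562 (+). Capitals mark matches, on either strand, to the homeodomain letters TAATTA and TAATTG or to the bHLH letters CAGATG and CAGCTG.
Cdh20: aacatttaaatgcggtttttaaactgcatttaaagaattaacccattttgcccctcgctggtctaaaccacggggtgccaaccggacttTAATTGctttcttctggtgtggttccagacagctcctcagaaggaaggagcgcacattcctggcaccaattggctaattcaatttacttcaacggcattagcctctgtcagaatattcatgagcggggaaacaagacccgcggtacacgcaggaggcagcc
Pcdh15: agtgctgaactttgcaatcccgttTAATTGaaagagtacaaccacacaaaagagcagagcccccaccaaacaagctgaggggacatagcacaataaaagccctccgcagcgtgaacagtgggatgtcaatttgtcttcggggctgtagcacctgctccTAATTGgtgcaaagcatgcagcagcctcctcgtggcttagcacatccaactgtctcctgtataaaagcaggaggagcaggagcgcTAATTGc
Celsr2: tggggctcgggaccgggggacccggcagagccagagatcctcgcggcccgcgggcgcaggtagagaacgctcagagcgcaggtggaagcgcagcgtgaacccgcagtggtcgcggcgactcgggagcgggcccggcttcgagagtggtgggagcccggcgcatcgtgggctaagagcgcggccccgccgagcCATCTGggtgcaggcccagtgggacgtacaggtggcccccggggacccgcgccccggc
Pcdh17: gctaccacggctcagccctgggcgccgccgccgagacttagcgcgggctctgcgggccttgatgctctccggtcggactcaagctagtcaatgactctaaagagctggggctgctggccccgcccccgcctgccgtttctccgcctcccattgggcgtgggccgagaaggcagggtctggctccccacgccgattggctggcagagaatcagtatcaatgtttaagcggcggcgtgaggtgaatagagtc

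Cdh20 had 1 TAATTG match and Pcdh15 had 3, the nearest at -7 from the start. Celsr2 had 1 CAGATG match, read as CATCTG, and Pcdh17 had 0 matches to any of the 4 motifs. Of the 33 genes, 24 were found in the promoter table, with 27 starts. TAATTG was found for 2 of the 24 genes and in 7.17% of all 32851 windows, TAATTA for 1 gene (Cdh7) and in 4.84%, CAGATG for 2 (Cdh7 and Celsr2) and in 14.4%, and CAGCTG for 2 (Cdh9 and Cdh12) and in 13.0%. A match is a run of letters, not a site shown to be bound.

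Pcdh17 was the only one of the 33 genes called between CKO and control. It lies on chromosome 14 (84443563 to 84539002, + strand, GRCm38). In Meis2-high cells it was at 608 and 501 CPM in the controls and at 117 and 198 CPM in the CKO libraries, from 1196, 3030, 518 and 353 UMIs. Both CKO values were below both controls, 3.45-fold lower (log2 -1.79 ± 0.27, edgeR adjusted p = 0.037). Of 29 genes tested in these cells 1 was called, where 0.212% of all 11804 genes were (0.0762% lower). The call was lost, at much the same size, with likely doublets removed (log2 -1.75, edgeR adjusted p = 0.052), with cells thinned to 2000 UMIs (log2 -1.55, edgeR adjusted p = 0.064) and with each cell in 1 set only (log2 -1.72, edgeR adjusted p = 0.083).

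**Figure D3:**
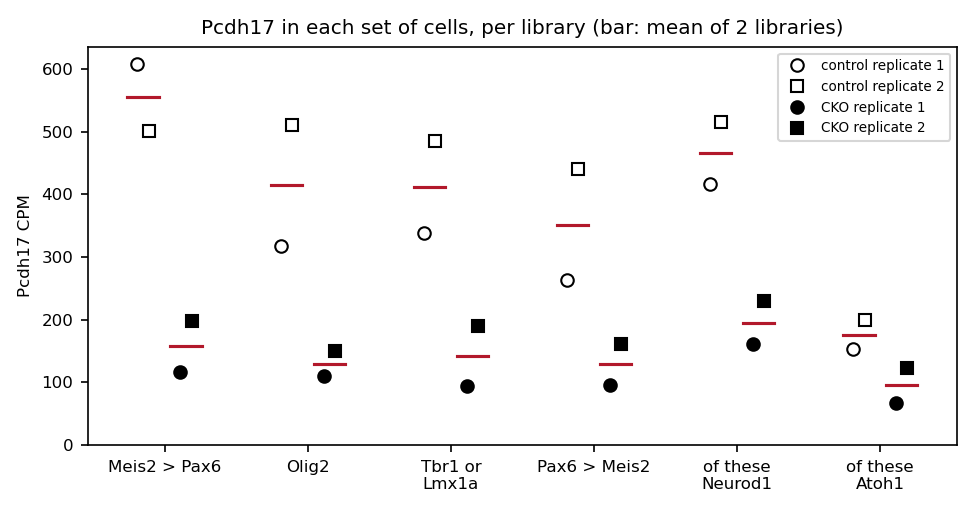
Pcdh17 level in CPM in each set of cells, 1 point per library (open: control, filled: CKO), with the mean of each pair of libraries as a bar. Both CKO points lie below both control points in all 6 sets shown, and the sets share cells.

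The share of Meis2-high cells with a Pcdh17 UMI at 2000 UMIs per cell was 58.5%, 50.8%, 22.2% and 29.3%, both CKO libraries below both controls. These shares are over 398, 1243, 401 and 229 cells. Thinning left out 180 and 1000 control and 143 and 150 CKO Meis2-high cells with fewer UMIs. In whole cells the shares were 60.0%, 50.4%, 39.4% and 43.3%. Of the haemoglobin-rich cells, 1 of 4, 1 of 12 and 1 of 3 had a Pcdh17 UMI, with median depths of 2787, 4639 and 17828 UMIs, against 2617, 2171, 3110 and 2248 UMIs for Meis2-high cells. CKO replicate 2 had 0 haemoglobin-rich cells.

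Other sets gave the same side for Pcdh17 without an edgeR call. In Pax6-high cells it was at 263, 440, 96.1 and 162 CPM (log2 -1.32 ± 0.33, edgeR adjusted p = 0.24). In Olig2 cells it was at 318, 512, 111 and 150 CPM (log2 -1.62 ± 0.36), and in Tbr1 or Lmx1a cells at 338, 485, 93.9 and 190 CPM (log2 -1.50 ± 0.39). Within the granule lineage, Neurod1 cells had 417, 515, 161 and 230 CPM and Atoh1 cells 153, 199, 67.3 and 123 CPM. The difference between the effects in Meis2-high and Pax6-high cells was -0.49 ± 0.25 on the log2 scale and was not called (edgeR adjusted p = 0.97).

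Atoh1 moved with the groups. It was at 94.6, 41.5, 194 and 119 CPM in Meis2-high cells, higher in both CKO libraries, and an Atoh1 UMI was found in 14.4%, 8.40%, 31.9% and 20.4% of them. Without the cells holding an Atoh1 UMI the Pcdh17 difference was -1.71 on the log2 scale, with an edgeR adjusted p of 0.083. In deep cells of low mitochondrial content it was -1.45 and was called. Leaving out any 1 library kept the call, with log2 values from -2.15 to -1.47. Other marker lists separated the groups in Meis2-high cells. The 6 granule lineage markers summed to 1449, 1101, 1757 and 1865 CPM, higher in both CKO libraries. Unipolar brush cell markers summed to 77.8, 127, 57.5 and 38.2 CPM and erythroid markers to 30.5, 2456, 8.37 and 3.93 CPM, lower in both. Oligodendrocyte lineage markers were lower in both as well (7.63, 11.4, 7.47 and 3.37 CPM). GABAergic markers (110, 68.3, 36.0 and 74.7 CPM) overlapped. The part of these cells in the result was not tested.

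Next to Pcdh17 in Meis2-high cells were genes that separated the groups without being called. Cdh10 was at 31.5 and 34.6 CPM in controls and 12.7 and 16.3 CPM in CKO libraries (log2 -1.20 ± 0.26, edgeR adjusted p = 0.10). Pcdh1 was at 39.7 and 33.8 against 12.9 and 20.8 CPM (log2 -1.14 ± 0.28, edgeR adjusted p = 0.13). Pcdh10 was at 101 and 56.9 against 19.0 and 45.0 CPM (log2 -1.32 ± 0.37, edgeR adjusted p = 0.16). In each of these 3 genes both CKO libraries were below both controls. Fat4 was at 21.9 and 29.0 against 12.7 and 13.5 CPM (log2 -0.96 ± 0.29, edgeR adjusted p = 0.19). Without CKO replicate 2 Cdh10, Pcdh1 and Pcdh10 were called beside Pcdh17, where 5.86% of all genes were called. Without control replicate 1 Cdh10 was (2.02% of all genes), and without control replicate 2 Pcdh10 and Cdh13 were (0.821%).

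On levels scaled by TMM (the trimmed mean scaling of the fit), both CKO libraries lay below both controls in 13 of 29 genes in Meis2-high cells, against 22.6% of all genes, and above in 1, against 22.0%. On the CPM printed here these counts were 14, against 24.6%, and 1 (Cdh20), against 19.8%. The median log2 difference was -0.45 over the 29 genes and -0.01 over all genes tested. Celsr2 (201 ± 4.06 CPM in controls, 201 ± 7.43 CPM in CKO libraries, SD, n = 2 each) and Cdh2 (log2 -0.17 ± 0.25) differed little. The 33 genes together made up 2383, 2022, 1218 and 1595 CPM of Meis2-high RNA. Without Pcdh17 these sums were 1774, 1521, 1101 and 1397 CPM, again lower in both CKO libraries.

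**Figure D4:**
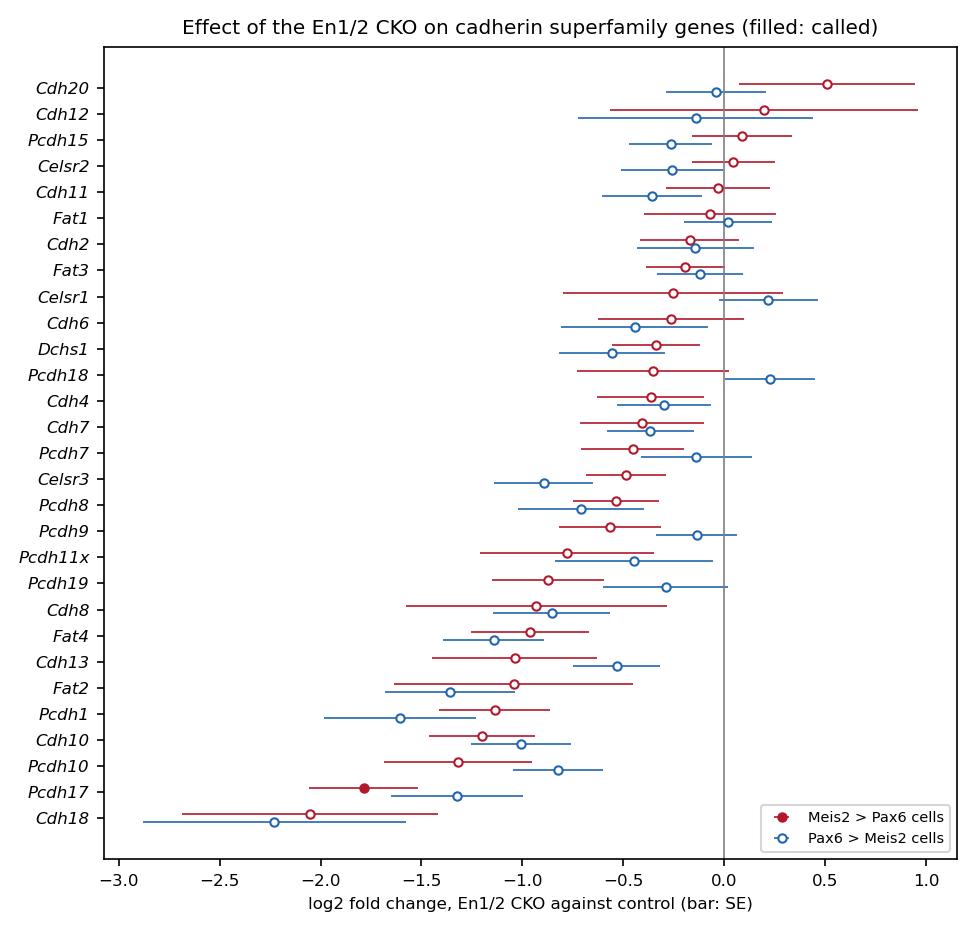
Fitted log2 difference between CKO and control with its SE, in Meis2-high (red) and Pax6-high (blue) cells, for the 29 genes tested in Meis2-high cells. The filled point is Pcdh17 in Meis2-high cells at -1.79, the only call, and most points lie left of 0.

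In Pax6-high cells 0 of 30 genes were called by edgeR, where 0.0574% of all 13931 genes were (0.0359% lower). At an unadjusted p below 0.05 there were 12, against 9.82% of all genes. DESeq2 called 2, Pcdh17 and Fat2, where it called 0.646% of all genes. Fat2 was at 28.3, 25.2, 6.02 and 13.0 CPM (log2 -1.36 ± 0.32, edgeR adjusted p = 0.22). Fat4 was at 14.8, 16.1, 6.02 and 6.70 CPM (log2 -1.14 ± 0.25) and Cdh10 at 21.2, 17.98, 7.62 and 10.4 CPM (log2 -1.01 ± 0.25). Each had both CKO values below both controls. With TMM this held for 18 of the 30 genes, against 23.5% of all genes, and the reverse for 1, against 22.9%. On the printed CPM it held for 23, against 34.9%, and the reverse for 0, against 12.6%. The median log2 difference was -0.41 over the 30 genes and -0.01 over all. Depth and Atoh1 moved with the groups here: Pax6-high cells had a median of 3238, 2339, 13722 and 9818 UMIs, and 33.04%, 14.7%, 57.4% and 49.6% held an Atoh1 UMI. Lower in both CKO libraries were GABAergic (41.1, 64.0, 9.96 and 20.4 CPM), unipolar brush cell (93.0, 116, 84.8 and 76.1 CPM) and nuclei neuron markers (670, 1119, 668 and 616 CPM). So were oligodendrocyte lineage markers, at 13.4, 12.3, 5.41 and 6.32 CPM. Their part in the result was not tested.

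Neither stage alone gave an edgeR call for CKO against control, with 0 of 27 in Neurod1 cells, where 0.0435% of all genes were called, and 0 of 23 in Atoh1 cells, where 0.0948% were. Within Neurod1 cells Cdh10 was at 30.1, 15.3, 4.13 and 6.95 CPM, Fat2 at 63.4, 41.9, 18.9 and 34.9 CPM and Pcdh1 at 11.9, 12.6, 2.75 and 5.21 CPM. Both CKO values were below both controls for these, as they were for others of the 33 genes such as Cdh7 and Cdh11. The share of all genes with this order was not counted in Neurod1 cells. In all Pax6-high cells it was 34.9% on the printed CPM. Within Atoh1 cells the Cdh10 values were 14.54, 11.1, 16.7 and 14.7 CPM, not lower in the CKO libraries, and Fat2 overlapped at 2.91, 5.53, 3.43 and 2.53 CPM. These Atoh1 values rest on 20, 4, 39 and 64 UMIs of Cdh10 and 4, 2, 8 and 11 UMIs of Fat2. Leaving out CKO replicate 2 gave 2 calls in all Pax6-high cells, Fat2 and Pcdh17, where 0.865% of all genes were called.

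Neither of the marker sets had a call by edgeR in the 26 genes tested in each. In Olig2 cells 0.019% of all 10524 genes were called, and 7 of the 26 had an unadjusted p below 0.05, against 7.63% of all genes. Cdh10 was at 24.8 and 58.6 CPM in controls and 5.48 and 10.1 CPM in CKO libraries (log2 -2.37 ± 0.50, edgeR adjusted p = 0.43). With TMM both CKO libraries were below both controls in 7 of the 26, against 20.2% of all genes, and above in 2, against 20.7%; on the printed CPM the counts were 9, against 23.3%, and 2, against 17.0%. DESeq2 called Pcdh17 alone, where it called 0.2% of all genes, and gave no adjusted p for 2 of the 26. Without control replicate 1, 9 of 27 genes were called, where 11.4% of all genes were, and without CKO replicate 2 Cdh10 was, where 0.267% were. Among the Meis2-high Olig2 cells alone 3 of 17 were called, Pcdh17, Cdh10 and Celsr3, where 4.56% of all 7815 genes were; Cdh10 was at 29.9, 61.7, 5.48 and 0 CPM there, from 4, 54, 5 and 0 UMIs. Depth, Atoh1 and other marker lists moved with the groups in Olig2 cells. They had a median of 4233, 2605, 13268 and 14646 UMIs, and 32.1%, 6.83%, 58.7% and 65.0% held an Atoh1 UMI. GABAergic markers summed to 64.2, 33.4, 7.58 and 12.1 CPM and unipolar brush cell markers to 66.1, 89.5, 35.0 and 36.9 CPM, both lower in both CKO libraries. So were oligodendrocyte lineage markers, at 22.0, 32.5, 13.1 and 13.0 CPM. Erythroid markers were at 8.26, 9243, 3.37 and 1.26 CPM. Their part in the result was not tested.

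Among Tbr1 or Lmx1a cells 0.00981% of all 10196 genes were called between CKO and control, and 9 of the 26 had an unadjusted p below 0.05, against 8.94% of all genes. DESeq2 called 0 and gave no adjusted p for 14 of the 26. Pcdh10 was at 35.7, 44.7, 10.8 and 16.5 CPM (log2 -1.58 ± 0.35, edgeR adjusted p = 0.36). Pcdh9 was at 97.3, 110, 49.2 and 61.5 CPM (log2 -0.87 ± 0.26, edgeR adjusted p = 0.47). Both separated the groups. With TMM 11 of the 26 genes did so in this direction, against 20.8% of all genes, and 3 in the other, against 21.9%; on the printed CPM the counts were 12, against 24.3%, and 2, against 18.3%. At 2000 UMIs per cell 1 of 9, Pcdh17, was called, where 0.0599% of all genes were. Without control replicate 1 there were 5 calls among 27 genes (Celsr3, Dchs1, Pcdh1, Pcdh10 and Pcdh17), where 4.25% of all genes were called. Depth, Atoh1 and several marker lists moved with the groups. These cells had a median of 3085, 2547, 5639 and 5264 UMIs, and 18.1%, 8.61%, 40.5% and 39.2% held an Atoh1 UMI. The 6 granule lineage markers summed to 2750, 1881, 2780 and 3266 CPM, and markers of ventricular zone and glia to 112, 57.7, 155 and 217 CPM, both higher in both CKO libraries. Lower in both were GABAergic (59.5, 49.2, 15.2 and 35.2 CPM), unipolar brush cell (256, 481, 199 and 206 CPM), microglial (342, 7.78, 0.317 and 0.749 CPM) and erythroid markers (14.1, 1727, 6.98 and 1.499 CPM). So were oligodendrocyte lineage markers, at 14.05, 9.07, 7.30 and 5.25 CPM. Their part in the result was not tested.

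The effect of the CKO was not shown to differ between Meis2-high and Pax6-high cells for any of the 31 genes tested, where 0.122% of all 13139 genes were called (0.0685% higher and 0.0533% lower). By edgeR 0 of the 31 had an unadjusted p below 0.05, against 5.64% of all genes. DESeq2 called 0 and gave no adjusted p for 16 of the 31. Leaving out control replicate 1 gave 4 calls, Cdh11, Celsr2, Celsr3 and Pcdh8, against 3.09% of all genes. Leaving out control replicate 2 gave 2, Cdh13 and Pcdh17, against 0.658%.

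Genes that work with cadherins were followed as lists. Of the catenins, which tie cadherins to actin, 0 of 9 tested were called between CKO and control in Meis2-high and 0 of 9 in Pax6-high cells, with median log2 differences of -0.15 and -0.15. Of the planar polarity genes, partners of the Celsr proteins, 0 of 11 and 0 of 12 were called (medians -0.17 and -0.20). For other members of the superfamily these counts were 0 of 6 and 0 of 8 (medians -0.70 and -0.67). The clustered protocadherins, the barcode-like isoforms of single neurons, had 0 of 36 and 0 of 44 called (medians -0.56 and -0.61). The median over all genes was -0.01 in each set. Between Meis2-high and Pax6-high cells, where 52.3% of all genes were called, 24 of 36 clustered protocadherins were higher in Meis2-high cells and none lower. In the same comparison 7 of 9 catenins were called (4 higher and 3 lower), 6 of 12 planar polarity genes (all higher) and 5 of 7 other members of the superfamily (4 higher and 1 lower). Counts of single alpha and gamma protocadherins are uncertain, since isoforms of those clusters share their 3′ exons.

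Few of these genes were detected in a cell at once, a number that depends on depth. At 2000 UMIs per cell, Meis2-high cells had a mean of 3.48, 2.99, 2.57 and 2.81 of the 33 genes detected, and Pax6-high cells 2.92, 3.21, 2.26 and 2.36. Both CKO libraries were below both controls in each set. Pcdh17 is part of these means, with a UMI in 58.5%, 50.8%, 22.2% and 29.3% of Meis2-high cells. In Pax6-high cells its shares were 41.4%, 49.9%, 20.1% and 27.7%. The means without Pcdh17 were not counted, so the order cannot be read as one of the other genes. Atoh1 cells had 1.96, 2.55, 1.90 and 1.97 and Neurod1 cells 3.202, 3.29, 2.26 and 2.34. Cells with 0 of the 33 genes made up 4.77%, 4.67%, 8.73% and 5.24% of Meis2-high cells and 6.37%, 4.74%, 14.9% and 11.3% of Pax6-high cells. At 3000 UMIs per cell the mean numbers detected were 4.3, 3.9, 3.1 and 3.3 in Meis2-high cells. In Pax6-high cells they were 3.7, 3.9, 2.8 and 2.8 at that depth.

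**Figure D5:**
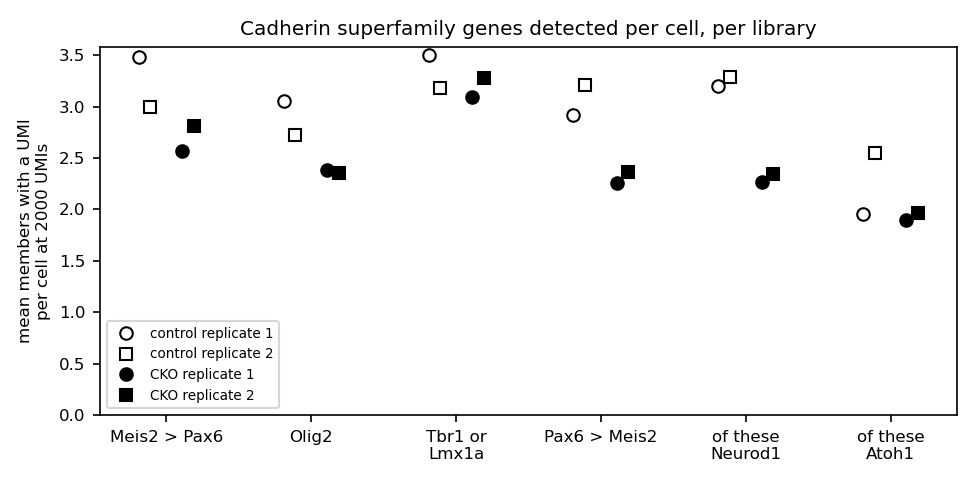
Mean number of the 33 genes with a UMI per cell, after thinning each cell to 2000 UMIs and assigning it to a set again, 1 point per library (open: control, filled: CKO). Atoh1 cells lie between 1.90 and 2.55 and Tbr1 or Lmx1a cells between 3.09 and 3.50.

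Pairs in the same cell were described by the odds ratio of finding both, without a test, for pairs with at least 15 positive cells of each gene in every library. At 2000 UMIs per cell, 67 of 190 pairs in Pax6-high cells had a ratio above 1 in all 4 libraries and 7 below 1. Pairs of other genes were not counted, so whether these numbers differ from those of genes at large was not tested. Pax6-high cells include both Atoh1 and Neurod1 cells, and the part of stage in the pairs was not tested. Pcdh17 and Fat2, both high in Neurod1 cells, were found together in 118 cells where 78.7 would be found if independent, with ratios from 1.83 to 4.24. Cdh11 and Pcdh17 shared 306 cells against 228, with ratios from 1.60 to 2.20, and Cdh8 and Cdh11 shared 58 against 34.7 (1.56 to 2.82). Pcdh18 and Fat3, both lower in Neurod1 cells, had ratios from 1.69 to 3.12. Fat2 and Fat3 shared 2 cells against 8.72 (0.31 to 0.53), and Pcdh17 and Fat1 shared 69 against 96.9 (0.36 to 0.90). In Meis2-high cells 16 of 78 pairs were above 1 and 2 below 1 in all 4 libraries. There Pcdh7 and Pcdh9, both high in Tbr1 or Lmx1a cells, shared 60 cells against 34.3 (1.17 to 5.55), and Cdh4 and Pcdh15 shared 10 against 18.1 (0.42 to 0.67). With cells thinned to 3000 UMIs the counts above and below 1 were 69 and 7 of 190 in Pax6-high cells and 8 and 0 of 45 in Meis2-high cells. Cdh4 and Pcdh15 were thus, at 3000 UMIs, either not below 1 in all 4 libraries or too rare to be measured. With likely doublets removed, Pcdh18 and Fat3 and also Cdh4 and Pcdh15 no longer lay on 1 side in all 4 libraries.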

How the data were processed

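Per the submitters' processing notes, the authors used Cell Ranger 5.0.0 and mm10, and the deposited files hold whole UMI counts by gene and barcode, not normalized. GENCODE M21 (GRCm38) gave gene coordinates and held 32158 of the 32285 gene IDs. Libraries held 21351661, 14998150, 27138010 and 33709450 UMIs over all barcodes, and 1 to 6 kept barcodes were shared by any pair of libraries.

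Counts were summed per library and set of cells, for sets with at least 20 cells in every library. They were tested with edgeR 4.0.16 (glmQLFit, TMM, filterByExpr, R 4.3.3), two-sided, with DESeq2 1.42.0 as alternative. Contrasts of 2 sets of cells had the library as block and left out the genes that define the sets. CPM in the text are without TMM. The SE is the log2 difference over the square root of F. Likely doublets (68, 124, 32 and 109 cells by a simulated-doublet score, scanpy 1.11.5) stayed in unless stated. A haemoglobin-rich cell had at least 10% haemoglobin UMIs. Thinned cells were assigned to sets again. Pair ratios have 0.5 added to each count. Scripts were tested on simulated data (numpy 2.4.6, pandas 2.3.3, scipy 1.17.1).

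The labels give the same replicate numbers to both groups. Same-numbered libraries deviated from their group means with a correlation of -0.16 (Pax6-high), -0.21 (Meis2-high), -0.31 (Olig2) and -0.10 (Tbr1 or Lmx1a), so the numbers were not taken to pair them. Which control and CKO libraries come from the same experiment is not given in the sources used here.

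Genes with a mean of 20 CPM or more in a set and a call in any comparison are named with each library's value, the others by counts and ranges. Cdh6, Cdh20, Celsr1, Fat2, Fat4, Pcdh11x and Pcdh19 were described beyond this rule after their values were seen, as were the pairs. Genes of the partner lists were named only if called between CKO and control. The 33 genes, the lists and the sets were chosen with earlier results of these data known. The added alternatives were chosen after seeing the data.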

Additional observations from a re-analysis of the deposited data

How the results depend on the processing

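The counts of genes called moved as follows. Where no share of all genes is printed for a setting, its count cannot be told apart from a general shift in calls. For CKO against control, DESeq2 called 2 genes in Pax6-high and 1 in Olig2 cells (edgeR 0 and 0). Without the filter on low counts there were 7 calls in Pax6-high, 5 in Meis2-high (edgeR with the filter 1) and 2 in Tbr1 or Lmx1a cells. In Meis2-high cells there were 0 with doublets removed, with cells thinned to 2000 UMIs, with each cell in 1 set only and without Atoh1 cells. Thinning gave 1 in Tbr1 or Lmx1a cells, and Meis2-high Olig2 cells alone gave 3. Leaving out 1 library gave 0 to 2 calls in Pax6-high, 1 to 4 in Meis2-high, 0 to 9 in Olig2 and 0 to 5 in Tbr1 or Lmx1a cells and 0 to 4 for the difference of effects. Such a fit assumes that the lone library varies like the other group. With the replicate number as block there were 0, 1, 0 and 0 calls in these 4 sets, with no call changed. A block that crossed the numbers gave 5, 6 and 6 calls in Pax6-high, Meis2-high and Olig2 cells. Between sets of cells, Olig2 against other Meis2-high cells gave 6 (deep cells of low mitochondrial content), 1 (thinned) and 0 calls (Meis2-high only), and 2 to 19 leaving out 1 library. Tbr1 or Lmx1a against other Meis2-high cells gave 8, 7 and 5 calls under these settings and 11 to 18 leaving out 1 library. Neurod1 against Atoh1 cells gave 11 when thinned. Log2 differences that turned sign in deep cells of low mitochondrial content were Pcdh7 (-0.036), Pcdh9 (-0.30) and Cdh10 (-0.44) in Meis2-high against Pax6-high cells. In Olig2 cells Pcdh10 turned to 0.047 and Pcdh9 to 0.33 there, and Pcdh10 to 0.13 with Meis2-high cells alone. Thinning turned Celsr3 to 0.11 in Olig2 and 0.061 in Tbr1 or Lmx1a cells. Those settings test fewer cells, and the cause was otherwise not tested. The remaining 75 counts stayed within 1.5 times, and of the values for single genes 630 kept their direction and call, 99 lost the call, 23 gained one, 8 turned sign (above) and 2 without a test moved. With 2 libraries a group and 372 to 2322 Meis2-high cells a library, genes near 10 CPM rest on few UMIs.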
